A study of Mus musculus with 12 samples.

Results

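The genes described here are 10 members of the Sox family of transcription factors with known roles in neural lineages: Sox1, Sox2, Sox3, Sox4, Sox5, Sox6, Sox8, Sox9, Sox10 and Sox11. They were chosen by symbol as the rows of the count tables that carry these names. They are 10 of the 24525 genes in the tables, and all 10 were among the 13112 genes that passed the filter on low counts and were tested.

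The RNA came from neurospheres, floating cultures of neural stem and progenitor cells (NSPCs), grown from C57BL/6 mouse brain at E14.5 and harvested at passage 1. There were 3 wild-type and 3 Ythdf2-/- input libraries, that is, fragmented mRNA set aside before an m6A antibody step, and the 6 m6A-IP samples were not analysed here. Both genotypes grew untreated in DMEM/F12 with 20 ng/ml EGF, 10 ng/ml bFGF, N2 and B27 without vitamin A. The libraries held 11029827 to 13185778 counted reads. The Ythdf2-/- animals carried a deletion of exon 1 and the 5′ UTR in every cell, made from a LoxP allele with a ubiquitous Cre, so the cultures differed from wild type from the start of development. The labels do not say which embryos gave which library, and p-values measure only the spread between these libraries. With 3 libraries against 3, a two-sided exact permutation test of a single value cannot go below 0.1.

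YTHDF2 binds mRNA that carries N6-methyladenosine and promotes its decay. Sox proteins bind DNA through a shared HMG box and fall into groups by sequence. The SoxB1 proteins SOX1, SOX2 and SOX3 keep neural progenitors undifferentiated, and the SoxC proteins SOX4 and SOX11 act in young neurons. The SoxD proteins SOX5 and SOX6 have no activation domain of their own and modulate other Sox proteins, partly as timing factors in cortical neurons and oligodendrocyte precursors. Among the SoxE proteins, SOX9 acts in the switch to gliogenesis, SOX10 drives oligodendrocyte and neural crest derivatives, and SOX8 overlaps with both.

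The members of a group share most of their HMG box, so it was asked whether their reads could be told apart. Coding sequence from the same place in the box is given for the SoxC and SoxE genes. Members of these groups had unlike profiles over the 6 libraries, as did those of SoxB1 and SoxD. Each run is 60 bases, 5′ to 3′ on the coding strand, read from GRCm38.p6 (the same assembly as mm10) at the exons of RefSeq transcripts, and capitals mark bases that differ from Sox4 in the SoxC pair and from Sox8 in the SoxE trio.
Sox4, chr13:28952782-28952841, minus strand: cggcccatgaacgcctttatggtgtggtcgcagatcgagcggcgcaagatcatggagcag
Sox11, chr12:27342199-27342258, minus strand: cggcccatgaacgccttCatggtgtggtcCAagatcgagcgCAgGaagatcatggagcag
Sox8, chr17:25570163-25570222, minus strand: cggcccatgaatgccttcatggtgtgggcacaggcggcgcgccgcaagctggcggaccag
Sox9, chr11:112782903-112782962, plus strand: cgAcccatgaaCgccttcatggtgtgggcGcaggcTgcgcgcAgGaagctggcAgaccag
Sox10, chr15:79163342-79163401, minus strand: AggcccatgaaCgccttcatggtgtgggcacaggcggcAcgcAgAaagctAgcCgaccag
In these runs Sox11 differed from Sox4 at 6 bases, and Sox9 and Sox10 each differed from Sox8 at 7. Over the whole box of 237 bases, members of 1 group were identical at 81.4% to 89.9% of bases, with no identical run longer than 48. Members of different groups were identical at 52.3% to 72.2% of bases, with no run longer than 30. No stretch of 50 bases from a transcript of any member occurred in another member, so reads of that length could be assigned to 1 Sox gene.

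The genes lie on 10 different chromosomes, and in the RefSeq annotation none of them shared an exonic base with another gene. Sox1, Sox2, Sox3, Sox4 and Sox11 are single-exon genes, Sox8 and Sox9 have 3 exons, Sox10 has 4, and Sox5 and Sox6 have 14 and 16. Sox2 lies inside an intron of the longer transcript Sox2ot on the same strand. In GENCODE M21, by contrast, 54.2% of the 50-base windows of Sox4 also occur in the opposite-strand transcript Gm26735, which has no row in the count tables. A further 9.49% of those of Sox8 occur in an opposite-strand transcript, 2810468N07Rik, which has one. The kit was strand-specific but the strand setting of the counting is not given in the sources used here, so the counts of Sox4 and Sox8 may include antisense reads.

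The targeted gene was lower in every Ythdf2-/- library. Ythdf2 stood at 71.9, 73.3 and 91.4 CPM (counts scaled to library size with TMM factors) in wild-type replicates 1 to 3 and at 11.7, 14.7 and 11.1 CPM in the Ythdf2-/- replicates, and the groups did not overlap. Its log2 fold change, Ythdf2-/- relative to wild type as throughout, was -2.66 (SE 0.183), with an adjusted p of 0.0547 by edgeR (quasi-likelihood, all genes tested), and -2.54 (SE 0.144) with an adjusted p of 0.0203 without wild-type replicate 3.

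Wild-type replicate 3 stood apart from the other libraries. On the first principal component, with 74.2% of the variance, it lay at 91.0 and the other libraries between -30.6 and -6.04. Its cell type markers stood apart too. The summed level of 10 oligodendrocyte lineage markers was 4300 CPM in this library against 1740 to 2170 CPM in the others. The 8 young neuron markers summed to 2540 CPM against 1330 to 1760 CPM, the 8 astrocyte markers to 9630 CPM against 2880 to 6910 CPM, and the 8 neural progenitor markers to 3270 CPM against 4690 to 6600 CPM. Of the single markers, 6 of 10 oligodendrocyte lineage, 6 of 8 young neuron, 4 of 8 astrocyte and 4 of 8 neural progenitor genes were above all other libraries there, while 3, 0, 0 and 3 were below all others, the last being Nes, Vim and Fabp7. Cells of other origin left little RNA in any library: the sum was at most 1.54 CPM for 7 microglia markers, 3.51 CPM for 6 endothelial markers, 32.4 CPM (again in wild-type replicate 3) for 6 mesenchymal markers and 53.2 CPM for 6 neural crest and Schwann cell markers, and C1qa, Ptprc, Cldn5 and Foxd3 were at 0 in all libraries. Reads on 4 Y-linked genes were present in wild-type replicates 1 and 2 and Ythdf2-/- replicate 3 (1111, 1638 and 2147) and nearly absent elsewhere (0 or 1), so the only wild-type library without them was also the one that stood apart. In bulk RNA, fewer cells of a type and less RNA per cell cannot be told apart.

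**Figure D1:**
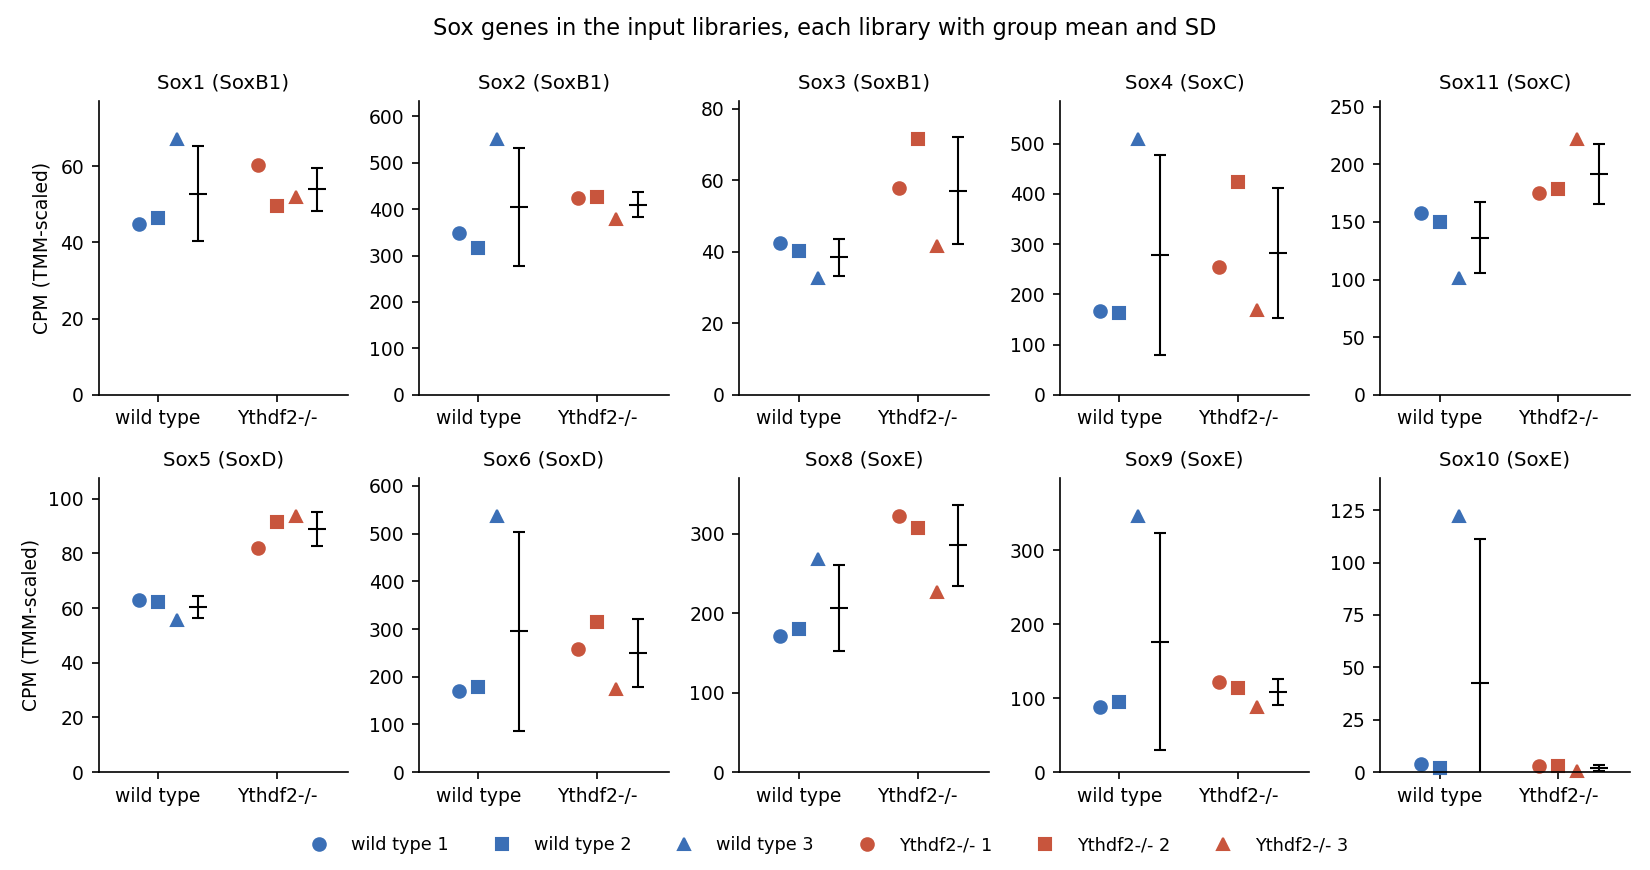
TMM-scaled CPM of the 10 Sox genes (y axes, each on its own scale from 0) in the 3 wild-type (blue) and 3 Ythdf2-/- (red) libraries, with the mean and SD of each group in black. The groups are apart in Sox5 and Sox11, while wild-type replicate 3 (blue triangle) is the highest library in Sox1, Sox2, Sox4, Sox6, Sox9 and Sox10; the SD bar of wild-type Sox10 reaches below 0 and is cut at the axis.

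Across the family, no member passed an adjusted p of 0.05 and 2 members had non-overlapping groups. The adjusted p of all 10 members was 0.999 in edgeR's test, in which 0.00% of all genes passed (0 of 13112). At an unadjusted p under 0.05, Sox3 and Sox5 were higher and Sox10 was lower in Ythdf2-/- libraries, that is, 3 of 10 members, where 3.63% of all genes passed (476 genes). The groups did not overlap in CPM for Sox5 and Sox11, both higher in Ythdf2-/- libraries, where 10.2% of all genes did not overlap in either direction and 5.24% were higher. By limma-voom and DESeq2 as well, no member passed an adjusted p of 0.05, while 0 and 31 genes of the whole table did.

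SoxB1 is led by Sox2, the pan-neural progenitor factor. Sox2 stood at 349, 316 and 551 CPM in wild-type replicates 1, 2 and 3 and at 425, 426 and 378 CPM in the Ythdf2-/- replicates. The Ythdf2-/- libraries lay within the range of the wild-type libraries, above replicates 1 and 2 and below replicate 3. The means were 405 ± 127 and 410 ± 27.3 CPM (SD, n = 3 each), and the log2 fold change was 0.02 (SE 0.239). Without wild-type replicate 3 it was 0.30 (SE 0.117), with an adjusted p of 0.281 in edgeR's test.

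Sox1, which is restricted to neural cells more strictly than Sox2, had the least variable profile of the 10, with an SD of log2 CPM of 0.225 over the 6 libraries. It stood at 44.8, 46.3 and 67.1 CPM in wild-type and 60.2, 49.6 and 51.8 CPM in Ythdf2-/- libraries. As for Sox2, the third wild-type library was highest and the first and second lowest. Between genotypes it differed by a log2 fold change of 0.03 (SE 0.196).

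Sox3, the X-linked member of the group, differed from the other SoxB1 genes in that wild-type replicate 3 was its lowest library. Its level was 42.4, 40.2 and 32.7 CPM in wild-type and 57.9, 71.5 and 41.6 CPM in Ythdf2-/- libraries. The first and second Ythdf2-/- libraries were above all wild-type libraries, while the third lay between wild-type replicates 1 and 2. This gave a log2 fold change of 0.57 (SE 0.228) with an unadjusted edgeR p of 0.0454. The first and second Ythdf2-/- libraries are those without Y-linked reads: in libraries with such reads (1 Ythdf2-/- against 2 wild-type) the log2 ratio of mean CPM was 0.01, and in libraries without them (2 against 1) it was 0.99. With a term for Y-linked reads in the fit, the log2 fold change was 0.50 (SE 0.258) and the unadjusted edgeR p was 0.104. Sox3 also missed an unadjusted p of 0.05 by limma-voom (0.0587) and in 5 of 6 edgeR fits that left out 1 library (0.0615 to 0.143), and reached 0.0108 without Ythdf2-/- replicate 3. It passed by DESeq2 (unadjusted p of 0.0412), with RLE (0.0463), on library totals (0.0478) and with sample quality weights (0.0123).

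The SoxC pair had unlike profiles. Sox4 stood at 166, 162 and 509 CPM in wild-type libraries and at 255, 424 and 169 CPM in Ythdf2-/- libraries, so that 1 library of each genotype was far above the rest of its group. The means, 279 ± 199 and 282 ± 130 CPM (SD, n = 3 each), were close, with a log2 fold change of 0.02 (SE 0.556). Without wild-type replicate 3 the value was 0.78 (SE 0.369), and without Ythdf2-/- replicate 2 it was -0.38 (SE 0.599), so that the direction of Sox4 was set by single libraries.

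Sox11, the other SoxC gene, was higher in every Ythdf2-/- library. It stood at 158, 150 and 101 CPM in wild-type and 175, 179 and 222 CPM in Ythdf2-/- libraries. The groups did not overlap, and wild-type replicate 3, the highest library for Sox4, was the lowest for Sox11. The means were 136 ± 30.4 and 192 ± 25.5 CPM (SD, n = 3 each). The difference was 0.49 on the log2 scale (SE 0.207) with an unadjusted edgeR p of 0.0520, 0.32 (SE 0.131) without wild-type replicate 3 and 0.67 (SE 0.125) with the Y-linked term. The log2 ratio of mean CPM was 0.53 in libraries with Y-linked reads and 0.81 in those without.

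Among the SoxD genes, Sox5 had the smallest standard error of the 10 members. It stood at 63.0, 62.2 and 55.6 CPM in wild-type and 81.8, 91.5 and 93.5 CPM in Ythdf2-/- libraries. Every Ythdf2-/- library was above every wild-type library, and wild-type replicate 3 lay close to the other wild-type libraries. The means were 60.2 ± 4.08 and 88.9 ± 6.27 CPM (SD, n = 3 each), a fold change of 1.48. The log2 fold change was 0.56 (SE 0.122), with an unadjusted edgeR p of 0.00316 and an adjusted p of 0.999. It was 0.51 (SE 0.101) without wild-type replicate 3, where the adjusted p was 0.153, and 0.61 (SE 0.112) with the Y-linked term, where the adjusted p was 0.224. Within libraries with Y-linked reads the log2 ratio of mean CPM was 0.58, and within those without it was 0.64. By DESeq2 the adjusted p was 0.0882. Limma-voom with sample quality weights gave wild-type replicate 3 a weight of 0.0957 and Sox5 a log2 fold change of 0.45 (SE 0.0771) with an adjusted p of 0.0430, in a fit that called 2.35% of all genes.

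Sox6, its paralogue, did not share this profile. Its level was 171, 179 and 536 CPM in wild-type and 259, 315 and 175 CPM in Ythdf2-/- libraries. Wild-type replicate 3 was 3.07-fold above the mean of replicates 1 and 2, and the groups overlapped. The log2 fold change was -0.24 (SE 0.500), and it turned to 0.51 (SE 0.242) without that library, with an adjusted p of 0.343.

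**Figure D2:**
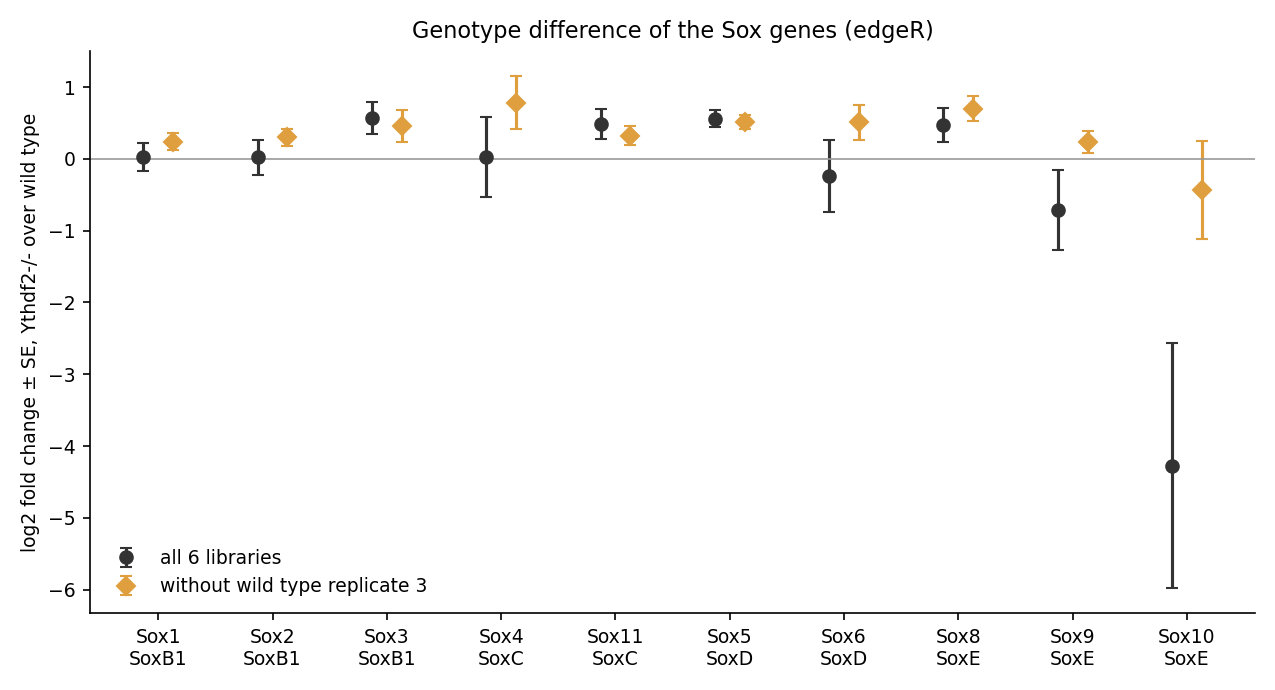
Log2 fold change (y axis, Ythdf2-/- over wild type) of the 10 Sox genes from edgeR, with standard errors, fitted on all 6 libraries (black circles) and without wild-type replicate 3 (orange diamonds). The values of 7 genes are above 0 in both fits, Sox6 and Sox9 change sign, and Sox10 goes from -4.27 to -0.44.

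The SoxE genes spanned the widest range of profiles. Sox8 stood at 171, 180 and 269 CPM in wild-type and 322, 308 and 227 CPM in Ythdf2-/- libraries. The groups overlapped only through wild-type replicate 3, which lay above Ythdf2-/- replicate 3. The log2 fold change was 0.47 (SE 0.236), with an unadjusted edgeR p of 0.0934, and 0.70 (SE 0.171) without wild-type replicate 3, where the adjusted p was 0.187. With the Y-linked term it was 0.30 (SE 0.118), with an unadjusted edgeR p of 0.0459 and an adjusted p of 0.450. Limma-voom with sample quality weights gave Sox8 a log2 fold change of 0.73 (SE 0.123) with an adjusted p of 0.0426. Sox5 and Sox8 were the members past an adjusted p of 0.05 in that fit, where 2.35% of all genes passed. The opposite-strand transcript 2810468N07Rik, named after its values were seen, was at 36.8, 41.0 and 65.1 CPM in wild-type and 79.0, 74.6 and 40.2 CPM in Ythdf2-/- libraries. It was highest in the libraries where Sox8 was highest, and the part of antisense reads in the Sox8 counts was not tested.

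Sox9, whose protein acts in the switch of progenitors to gliogenesis, was set apart by 1 library. It stood at 88.7, 94.6 and 346 CPM in wild-type and 122, 114 and 88.1 CPM in Ythdf2-/- libraries. Wild-type replicate 3 was 3.77-fold above the mean of replicates 1 and 2, and all other libraries lay between 88.1 and 122 CPM. The log2 fold change was -0.71 (SE 0.554) with all libraries and 0.24 (SE 0.153) without that one. With the Y-linked term it was -0.81 (SE 0.32), with an unadjusted edgeR p of 0.0464 and an adjusted p of 0.45. The log2 ratio of mean CPM was -0.06 in libraries with Y-linked reads. It was -1.55 in those without, where wild-type replicate 3 was the only wild-type library.

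Sox10, the oligodendrocyte and neural crest factor, was scarce in all libraries but 1. It was counted 46, 27 and 1337 times in wild-type and 37, 39 and 7 times in Ythdf2-/- libraries, that is, at 3.94, 2.06 and 122 CPM and at 3.16, 2.89 and 0.563 CPM. Wild-type replicate 3 was 40.8-fold above the mean of the other wild-type libraries, and the other 5 libraries of both genotypes overlapped. The log2 fold change was -4.27 (SE 1.70), with an unadjusted edgeR p of 0.0441 and an adjusted p of 0.999. Without wild-type replicate 3 it was -0.44 (SE 0.683), with an adjusted p of 0.779, so the size of the difference rested on that library. DESeq2 gave no p for Sox10. With the Y-linked term the log2 fold change was -4.65 (SE 0.627), with an unadjusted edgeR p of 0.00036 and an adjusted p of 0.151. The log2 ratio of mean CPM was -2.41 in libraries with Y-linked reads. It was -5.34 in those without, where wild-type replicate 3 was the only wild-type library. In wild-type replicate 3, 6 of 10 oligodendrocyte lineage markers, among them Mbp and Myrf, were above all other libraries and 3 (Olig1, Olig2 and Cspg4) were below, and their part in the result was not tested.

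Without wild-type replicate 3, the 3 Ythdf2-/- libraries were compared with wild-type replicates 1 and 2. Both of these wild-type libraries had Y-linked reads, as did Ythdf2-/- replicate 3, while Ythdf2-/- replicates 1 and 2 had nearly none. In this comparison genotype and Y-linked status therefore cannot be fully told apart. The log2 fold change rose for 7 members and was smaller for Sox3, Sox5 and Sox11. Of the 10 members, 9 had a positive log2 fold change (Sox10 was the exception), beside a median of 0.01 over all genes. The share of all genes with a positive value was not taken. Sox2, Sox5, Sox8 and Sox11 had an unadjusted p under 0.05, all higher, where 16.6% of all genes passed in either direction. None of the 10 passed an adjusted p of 0.05, where 0.0151% of all genes did (2 of 13283). The groups did not overlap, with Ythdf2-/- higher, for Sox1, Sox2, Sox4, Sox5, Sox8 and Sox11, where 18.8% of all genes did so. Wild-type replicates 1 and 2 were the most alike pair of libraries of the same genotype, with a chi-square per degree of freedom of 4.57 between their counts against 22.5 to 140 for the other pairs, and apart from Sox10 no member differed between them by more than 1.10-fold.

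Summed by group, the levels were again highest in that library. The SoxE genes together stood at 264, 277 and 737 CPM in wild-type and 446, 426 and 315 CPM in Ythdf2-/- libraries. The SoxD sums were 234, 241 and 592 CPM against 341, 406 and 268 CPM, and the SoxC sums were 323, 312 and 610 CPM against 430, 603 and 390 CPM. The SoxB1 sums were the steadiest, at 436, 402 and 651 CPM against 543, 547 and 472 CPM. In each of the 4 groups, wild-type replicate 3 was the highest library and wild-type replicates 1 and 2 the lowest, except that on library totals without TMM factors Ythdf2-/- replicate 2 was highest for SoxC (619 against 605 CPM). As shares of all reads on the 10 genes, SoxB1 took 34.7%, 32.6% and 25.1% in wild-type replicates 1 to 3 and 30.8%, 27.6% and 32.6% in the Ythdf2-/- replicates, and SoxE took 21.0%, 22.5% and 28.4% against 25.4%, 21.5% and 21.8%. SoxE therefore exceeded SoxB1 in reads in wild-type replicate 3 alone among the 6 libraries.

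**Figure D3:**
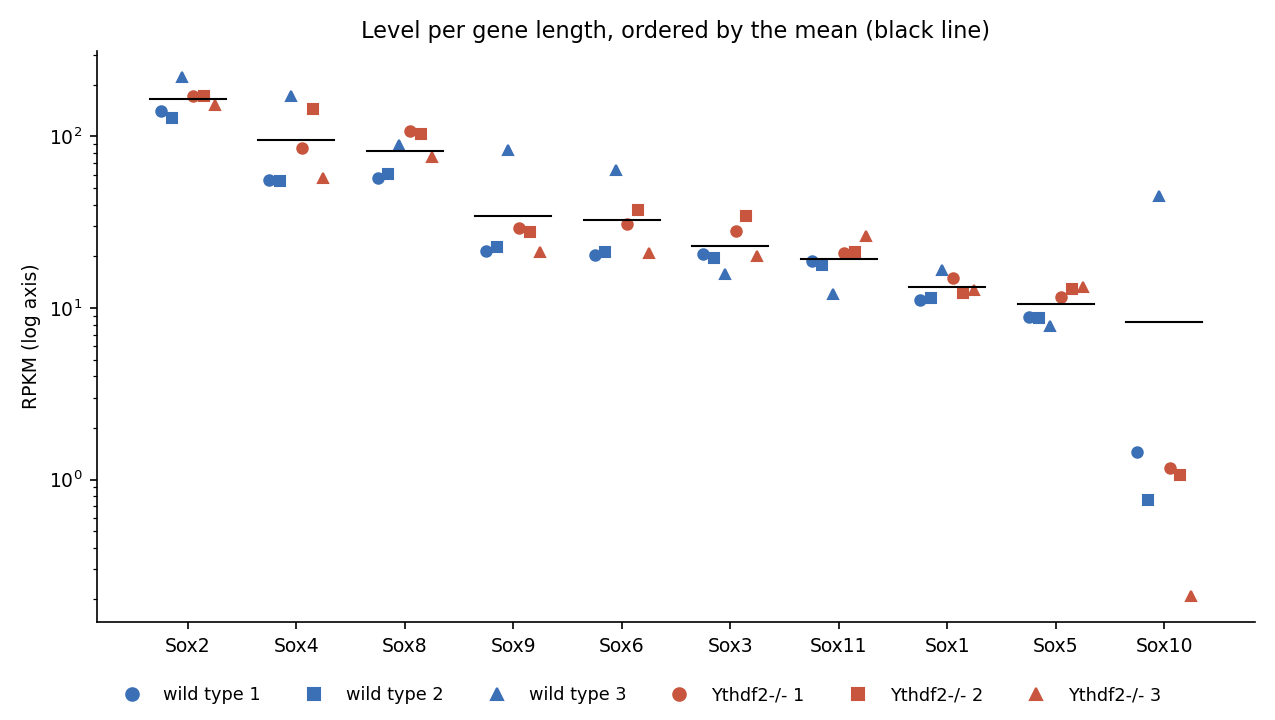
Level per gene length (RPKM, log y axis) of the 10 Sox genes in each wild-type (blue) and Ythdf2-/- (red) library, ordered by the mean over the 6 libraries (black line). Sox2 leads in every library, and the mean of Sox10, 8.29 RPKM, is set by wild-type replicate 3 at 45.1 RPKM while the other 5 libraries lie between 0.208 and 1.45 RPKM.

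Levels of different genes were compared per length, as RPKM (CPM divided by gene length in kilobases, with the lengths of the deposited gene tables). Sox2 was the most abundant member, with a mean of 165 RPKM and a range of 128 to 223 RPKM over the 6 libraries. It was above Sox4 in 6 of 6 libraries. Sox4 followed at 95.1 RPKM (55.0 to 172) and Sox8 at 82.1 RPKM (57.1 to 107), and these neighbours were not ordered, since Sox4 was above Sox8 in 2 of 6 libraries. Sox4 had a table length of 2953 bases against 4781 annotated exonic bases in RefSeq, and with the annotated length its mean was 58.7 RPKM, below Sox8.

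The next members had lower means. Sox8 was above Sox9 (mean 34.3 RPKM) in 6 of 6 libraries, but only by 89.6 against 83.4 RPKM in wild-type replicate 3. Without that library the means of Sox9, Sox6 and Sox3 were 24.5, 26.1 and 24.6 RPKM, so the place of Sox9 rested on it. Sox9, Sox6 (32.4 RPKM), Sox3 (23.1 RPKM) and Sox11 (19.4 RPKM) overlapped in range, and each was above the next in 4, 5 and 5 of 6 libraries. Sox1 (13.2 RPKM) was below Sox11 in 5 of 6 libraries and above Sox5 (10.5 RPKM) in 4 of 6. Sox10 came last at 8.29 RPKM, and at 0.929 RPKM without wild-type replicate 3. The deposited TPM values gave another order, led by Sox4, but they rested on at most 45.0 expected counts per member and library, against 607 or more raw counts for Sox5 and 1935 or more for Sox4.

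The other Sox genes of the tables give the frame for these levels. Sox21, a SoxB2 gene that counteracts SoxB1 in progenitors, stood at 81.0, 81.4 and 165 CPM in wild-type and 122, 167 and 76.4 CPM in Ythdf2-/- libraries, a profile with the same high libraries as Sox4. Sox12, the other SoxC gene, was at 48.1 to 79.2 CPM and Sox13, the other SoxD gene, at 8.51 to 14.2 CPM, with log2 fold changes of -0.17 (SE 0.214) and 0.04 (SE 0.252). Sox2ot was at 12.7 to 38.7 CPM, with a log2 fold change of -0.45 (SE 0.440). Sox7 had 4 to 18 counts per library, Sox15 at most 5, Sox18 at most 2 and Sox30 at most 1. Sox14 and Sox17, which act in interneuron subsets and in endoderm and endothelium, had no count in any library. Sox1ot was not analysed here.

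**Figure D4:**
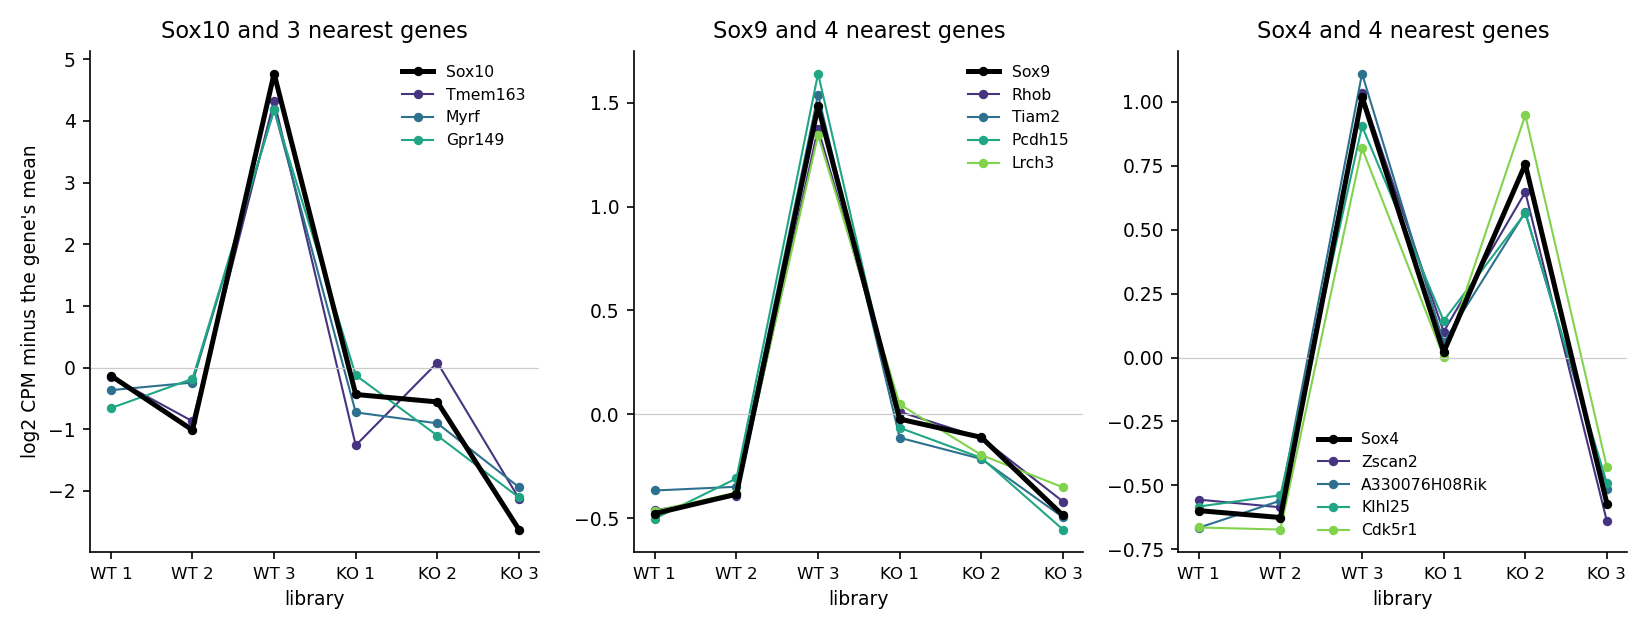
Log2 CPM of Sox10, Sox9 and Sox4 (black) and of genes nearest to each (colours; 3 for Sox10 and 4 for Sox9 and Sox4), centred on each gene's mean, over the 6 libraries (x axis; WT, wild type; KO, Ythdf2-/-; the lines only join points of a gene). All genes peak in wild-type replicate 3 except Cdk5r1, which is highest in Ythdf2-/- replicate 2, where the other genes of the Sox4 panel have another peak.

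The 3 members that varied most over the 6 libraries were Sox10, Sox9 and Sox4, with SDs of log2 CPM of 2.50, 0.752 and 0.733. For each, the genes with the most similar centred profile were sought among 12813 other genes tested with a mean of at least 1 CPM, by the root mean square difference in log2 CPM. Among the 4 nearest to Sox10 were Tmem163 (0.509), Myrf (0.527), which encodes the regulatory factor of myelin genes, and Gpr149 (0.575). Myrf stood at 7.27, 7.94 and 175 CPM in wild-type and 5.63, 4.96 and 2.33 CPM in Ythdf2-/- libraries, so that, as for Sox10, Ythdf2-/- replicate 3 was the lowest library. Nearest to Sox9 were Rhob (0.0536), Tiam2 (0.0774), Pcdh15 (0.0891) and Lrch3 (0.0913). Nearest to Sox4 were Zscan2 (0.0667), A330076H08Rik (0.0977), Klhl25 (0.115) and Cdk5r1 (0.132), the last of which encodes the p35 activator of CDK5 in neurons. The profiles of Sox10, Sox9 and Sox4 all had their largest deviation in wild-type replicate 3, which the likeness over 6 libraries therefore shares.

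Partners and known targets of the Sox proteins were read from 3 lists. Of 8 partners and targets of SoxB1 (all tested), none had an unadjusted p under 0.05, where 3.63% of all genes did, so that a count of 0 among 8 does not set the list apart. Their median log2 fold change was 0.12 beside -0.01 over all genes. The most abundant were Fabp7, a radial glial lipid-binding protein, at 2310, 2310 and 760 CPM in wild-type and 1890, 1640 and 2410 CPM in Ythdf2-/- libraries, Nes (nestin) and Pou3f3. In wild-type replicate 3, the library in which Sox2 was highest, 3 genes of the list, Fabp7 and Nes among them, were at their lowest and 2, Pax6 and Hes5, were at their highest. Nes stood at 1190, 1060 and 264 CPM against 725, 1210 and 998 CPM, while Pou3f3, a POU partner, was at 135 to 151 CPM in all libraries.

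Of 8 SoxC targets (all tested), 2 had an unadjusted p under 0.05 and were lower in Ythdf2-/- libraries, where 1.82% of all genes were, and none were higher. They were Dcx (doublecortin), at 10.0, 13.1 and 315 CPM against 8.36, 11.3 and 9.90 CPM, and Stmn2, at 1.54, 1.45 and 1.46 CPM against 0.0853, 0.592 and 0.161 CPM. Dcx rested on wild-type replicate 3, with a log2 fold change of -3.51 (SE 1.39) with it and -0.23 (SE 0.216) without, whereas Stmn2, a scarce transcript, had -2.33 in both fits (SE 0.629 and 0.667). The median of the list was -0.10. The most abundant were Map2 (1020, 1060 and 1440 CPM against 1110, 1220 and 1160 CPM), Ncam1 and Mapt, with log2 fold changes of -0.02, 0.13 and 0.14. Without wild-type replicate 3 these were 0.16 (SE 0.13), 0.51 (SE 0.140) and 0.64 (SE 0.148). The median of the list was then 0.15, beside 0.01 over all genes, with 2 of its genes higher and 1 lower at an unadjusted p under 0.05, where 16.6% of all genes passed in that fit in either direction.

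Of 11 SoxE targets and partners, 8 were tested. Of these, 3 had an unadjusted p under 0.05 and were lower in Ythdf2-/- libraries, among them Mbp and Myrf, genes of myelination, where 1.82% of all genes were, and Cspg4, which encodes the precursor proteoglycan NG2, was higher, where 1.81% of all genes were. Mbp, the largest, stood at 6.68, 8.85 and 573 CPM in wild-type and 4.95, 4.29 and 1.21 CPM in Ythdf2-/- libraries. Its log2 fold change was -5.81 (SE 1.99) and was -1.16 (SE 0.534) without wild-type replicate 3. Myrf likewise had -3.87 (SE 1.39) with that library and -0.82 (SE 0.376) without it. Without it, 0 genes of the list were lower and 2 higher at an unadjusted p under 0.05, where 16.6% of all genes passed in either direction, and the median of the list was -0.11 instead of -0.36. Cspg4 was at 96.8, 94.9 and 89.9 CPM against 127, 145 and 110 CPM, with no overlap and a log2 fold change of 0.44 (SE 0.138). No gene of the 3 lists passed an adjusted p of 0.05 in edgeR's test. The most abundant genes of the list, Slc1a3 and Olig2, had log2 fold changes of 0.34 and 0.12, and Olig2, which marks oligodendrocyte precursors and ventral progenitors, was lowest in wild-type replicate 3 at 324 CPM, beside 417 to 514 CPM in the others.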

How the data were processed

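The 3 wild-type and 3 Ythdf2-/- input libraries were grouped by the genotype in their labels. Raw counts, whole reads per gene, were deposited without normalization after the authors' alignment with TopHat (build mm10). The submitters' processing notes also name Bowtie2 2.2.9, RSEM 1.2.15 and featureCounts, with no strand setting. The authors also deposited gene tables whose columns, per the file headers, are those of RSEM, with expected counts estimated per gene. These, rounded here for 1 alternative fit, sum to 1.97% to 2.40% of the raw counts, for a reason not given in the sources used here. Their TPM values, deposited with them, share this low depth, and their gene lengths were used for RPKM.

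Genes passing filterByExpr were tested with edgeR 4.0.16 in R 4.3.3 (TMM, glmQLFit with robust, glmQLFTest; genotype as the only term; Benjamini-Hochberg over 13112 genes). The SE of a log2 fold change is its size divided by the square root of the F statistic. DESeq2 1.42.0, limma-voom (limma 3.58.1), other scalings and filters, a term for Y-linked reads (over 3 in sum on 4 genes), the replicate block and leaving out each library were alternatives. Principal components were taken over log2 CPM (prior count 2) of the 2000 genes with the largest variance. Fits were tested on simulated data. The members, gene lists and tests were chosen with earlier results of these data known. Named were the 10 members, Ythdf2, the other Sox genes, up to 3 of the most abundant genes of a list, and the 4 genes nearest to the 3 most variable members. Genes that passed an unadjusted p, the oppositely transcribed neighbours and marker genes at 0 were named after their values were seen. Of the genes this rule names, 1 is not reported here. Counting error alone is small at these depths except for Sox10. Positions and sequences came from GRCm38.p6 with RefSeq and from GENCODE M21.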

Additional observations from a re-analysis of the deposited data

How the results depend on the processing

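The 3 members with an unadjusted p under 0.05 became 8 under limma-voom with sample quality weights (3657 of 13112 genes passed there), 5 with the term for Y-linked reads (1436 genes) and 0 of 3 members that could be fitted on the expected counts (55 of 2559 genes, 2.15%), and ranged from 1 to 4 when each library was left out, where 1.85% to 16.6% of all genes passed. It was 1 (Sox5) without Ythdf2-/- replicate 1, where 1.85% of all genes passed, and without Ythdf2-/- replicate 2, where 4.14% did. With the term for Y-linked reads, the 5 members were Sox5, Sox8 and Sox11, which were higher, and Sox9 and Sox10, which were lower. The 0 members past an adjusted p of 0.05 became 2 under the quality weights, where 308 of 13112 genes (2.35%) passed. The 2 members with non-overlapping groups ranged from 2 to 6 as libraries were left out, with 4 without Ythdf2-/- replicate 3, where the groups of 2120 of 13261 genes (16.0%) did not overlap in either direction, and 6 without wild-type replicate 3, where those of 5165 of 13283 (38.9%) did not.

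Directions turned for Sox1, Sox2, Sox4, Sox5, Sox6 and Sox9 under at least 1 alternative. With the Y-linked term Sox1 was at -0.05, Sox2 at -0.09 and Sox4 at -0.27. Under the quality weights Sox6 was at 0.44 and Sox9 at 0.25. On the expected counts Sox2 was at -0.22 and Sox5 at -0.57, where Sox5 had at most 28.2 expected counts in a library. Leaving out each library gave Sox1 from -0.07 to 0.24, Sox2 from -0.13 to 0.30, Sox4 from -0.38 to 0.78, Sox6 from -0.52 to 0.51 and Sox9 from -1.02 to 0.24, and kept the sign of the other members. The causes were not tested.

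Ythdf2 passed an adjusted p of 0.05 with RLE (-2.67), DESeq2 (-2.67), at least 10 counts in every library (-2.66), no filter (-2.64), the quality weights (-2.61) and the Y-linked term (-2.75), and ranged from -2.78 to -2.54 as libraries were left out. It missed that threshold on library totals (adjusted p 0.0722), by limma-voom (0.0751), with the replicate block (1) and in 5 of 6 fits without 1 library (0.246 to 0.866), and passed without wild-type replicate 3 (0.0203). The order per length kept 1 of 10 ranks with the deposited TPM, 8 with annotated exon lengths and 5 without wild-type replicate 3, the last 2 of which were chosen after seeing the data. Sox10 could not be fitted with at least 10 counts in every library.

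Deviations of same-numbered libraries from their group means correlated at -0.248, -0.244 and -0.394. Deviations within a genotype are tied to each other, and wild-type replicate 3 stood apart. Whether the replicate numbers of the labels pair the samples therefore cannot be read from these values. With the replicate block, 2 members (Sox3 and Sox5) passed at the unadjusted p (183 of 13112 genes did) and 0 after adjustment, the log2 fold change of Sox5 was 0.56 and that of Sox10 was -1.68, and no member changed direction.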
